A study of Homo sapiens with 24 samples.

Results

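MALAT1 and NEAT1 are a pair of neighbouring long noncoding RNA (lncRNA) genes whose transcripts stay in the nucleus. They were chosen by name and are 2 of the 60641 gene symbols counted in all 24 RNA-seq libraries. The libraries fall into 8 groups of 3 and come from 2 established cell lines, A549 (lung adenocarcinoma) and HCT116 (colorectal carcinoma). In the knockouts (KOs), CRISPR/Cas9 had removed the predicted DNA-binding domain (DBD) of an lncRNA transcript known by its assembly name. The A549 groups are MSTRG.2513.6 KO (S17, S18 and S19), MSTRG.4401.1 KO (S23, S24 and S25) and the unedited A549 WT B (S20, S21 and S22). The HCT116 groups are MSTRG.2513.6 KO (S8, S9 and S11), MSTRG.4401.1 KO (S10, S15 and S16), MSTRG.34636.7 KO (1A, 2A and 3A), and the unedited WT B (S12, S13 and S14) and WT A (1A, 2A and 3A). Each KO was set against the wild type of its own line and series, so that MSTRG.34636.7 KO has WT A as its control and the other KOs have WT B. The KOs of one line that share WT B share its control libraries. Neither MALAT1 nor NEAT1 was edited. The labels do not say whether a KO line is a single clone or whether the libraries of a group come from separate cultures, so p-values measure only the spread between these libraries, which may be technical. The MSTRG transcripts themselves are not among the counted symbols, and the edit was not analysed here.

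NEAT1 is the scaffold of paraspeckles, nuclear bodies that assemble on its long isoform together with RNA-binding proteins of the DBHS family such as NONO and SFPQ. MALAT1 is one of the most abundant nuclear RNAs and accumulates in nuclear speckles, where splicing factors of the SR family are stored. Neither RNA relies on an ordinary poly(A) tail at its long end. RNase P cuts the primary transcript just before a tRNA-like element, RNase Z trims the small RNA that is released, and the new end of the lncRNA is protected by a helix in which U-rich motifs wrap around an A-rich tract. NEAT1 is also known as a gene that cell stress can induce, and both RNAs are widely studied in lung and colon cancer cells.

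Both genes lie on the plus strand of chromosome 11 at 11q13.1. In GENCODE v44 on GRCh38, the same build as the hg38 named for the files, NEAT1 (ENSG00000245532.11) spans chr11:65422774-65445540 and MALAT1 (ENSG00000251562.11) spans chr11:65497640-65508073, with 52099 bases between them. The short NEAT1 isoform of 3684 bases ends at position 65426457, whereas the long isoform runs to 65445540, and the deposited counts give 1 number for both. The last 100 bases of each lncRNA before the RNase P cut are shown because they carry the end structure that the RNAs share. Capitals mark the runs of at least 8 identical bases found in both windows.
NEAT1, chr11:65445441-65445540, plus strand: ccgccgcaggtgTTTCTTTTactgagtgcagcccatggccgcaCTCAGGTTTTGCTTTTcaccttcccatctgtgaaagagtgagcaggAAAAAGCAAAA
MALAT1, chr11:65506017-65506116, plus strand: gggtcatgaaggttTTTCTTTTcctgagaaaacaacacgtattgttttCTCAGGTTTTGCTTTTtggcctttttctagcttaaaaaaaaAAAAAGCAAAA
There were 3 such runs, 2 of them U-rich in the RNA and the last an A-rich tract at the very end. The longest, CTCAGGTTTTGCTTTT, was 16 bases and the A-rich run, AAAAAGCAAAA, was 11. The tRNA-like elements that follow are shown with capitals for the bases identical in a global alignment of the pair.
NEAT1 tRNA-like element, chr11:65445541-65445598, plus strand: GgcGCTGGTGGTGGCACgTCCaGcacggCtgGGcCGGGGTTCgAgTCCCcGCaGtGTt
MALAT1 tRNA-like element (mascRNA), chr11:65506117-65506173, plus strand: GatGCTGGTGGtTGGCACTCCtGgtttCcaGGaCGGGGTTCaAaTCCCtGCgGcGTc
In this alignment 40 bases were identical, or 69.0% of the longer element of 58 bases.

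Library totals ranged from 25799359 to 102261808 counts, and the smallest were those of A549 MSTRG.4401.1 KO (25799359 to 33205007). At these depths MALAT1 had at least 286292 counts and NEAT1 at least 20033 in every library, so counting error is small beside the spread between libraries. S8 and S9, labelled HCT116, stood apart. Their summed A549 markers (7 genes, among them AKR1B10 and ALDH1A1) reached 12632 and 12776 CPM (counts per 1000000 of the library total), against 9343 to 13828 CPM in A549 and 6.82 to 17.5 CPM in the other 13 HCT116 libraries. EPCAM, 1 of 7 HCT116 markers, was at 0.890 and 1.31 CPM in S8 and S9 but at 111 to 247 CPM in the other HCT116 libraries. CDKN2A and CDX2 were likewise lower in S8 and S9. CDH17 went the other way, at 5.21 to 7.40 CPM in S8 and S9 and 0.116 to 1.76 in the other HCT116 libraries. In the A549 libraries CDH17 was at 5.21 to 16.3 CPM, so here too S8 and S9 lay in the A549 range. VIL1, LGR5 and ASCL2 were low in both lines and did not separate them. The fold changes, interaction, ratio and correlations that rest on S8 and S9 are therefore also given without them. Genes of lung lineage (NKX2-1, SFTPA1, SFTPB and SFTPC) summed to 1.11 to 3.10 CPM in A549, so these markers were nearly absent. Mitochondrially encoded genes took 3.50% to 7.87% of the counts in A549 MSTRG.4401.1 KO and 1.39% to 3.24% in the other 21 libraries. In bulk RNA a change in the number of cells of a kind and a change of RNA per cell cannot be told apart.

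MALAT1 was among the most abundant transcripts of every library. It took 0.667% to 1.54% of all counts and ranked between 3 and 7 among all symbols. NEAT1 took 0.0424% to 0.221% and ranked between 24 and 265. NEAT1 was also the more variable of the pair, since its highest library exceeded its lowest 5.22-fold in CPM, against 2.31-fold for MALAT1. Per kilobase of annotated exon (10434 bases for MALAT1, 22767 for NEAT1), the MALAT1 level was 9.73 to 37.6 times the NEAT1 level in the same library. If all NEAT1 reads belonged to the short isoform, that factor would be 1.58 to 6.09, and MALAT1 would still have been the higher of the pair in every library.

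In A549, the order of the MALAT1 levels was MSTRG.4401.1 KO (13434 ± 2296 CPM, SD, n = 3), MSTRG.2513.6 KO (9406 ± 231 CPM) and WT B (7475 ± 496 CPM), and no adjacent groups overlapped. NEAT1 followed the same order, with 1599 ± 297, 741 ± 203 and 543 ± 158 CPM, and here MSTRG.2513.6 KO and WT B overlapped. In HCT116, MALAT1 was at 10928 ± 189 CPM in MSTRG.34636.7 KO, 10908 ± 938 CPM in MSTRG.2513.6 KO, 8018 ± 1653 CPM in WT A, 7596 ± 427 CPM in WT B and 7068 ± 94.0 CPM in MSTRG.4401.1 KO. Of these neighbours, only WT B and MSTRG.4401.1 KO did not overlap. The HCT116 order of NEAT1 differed, with WT A highest (1390 ± 717 CPM), then MSTRG.34636.7 KO (1255 ± 221), MSTRG.2513.6 KO (1126 ± 557), WT B (925 ± 182) and MSTRG.4401.1 KO (775 ± 145), and every adjacent pair overlapped. The ± values are SDs of 3 libraries throughout.

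**Figure D1:**
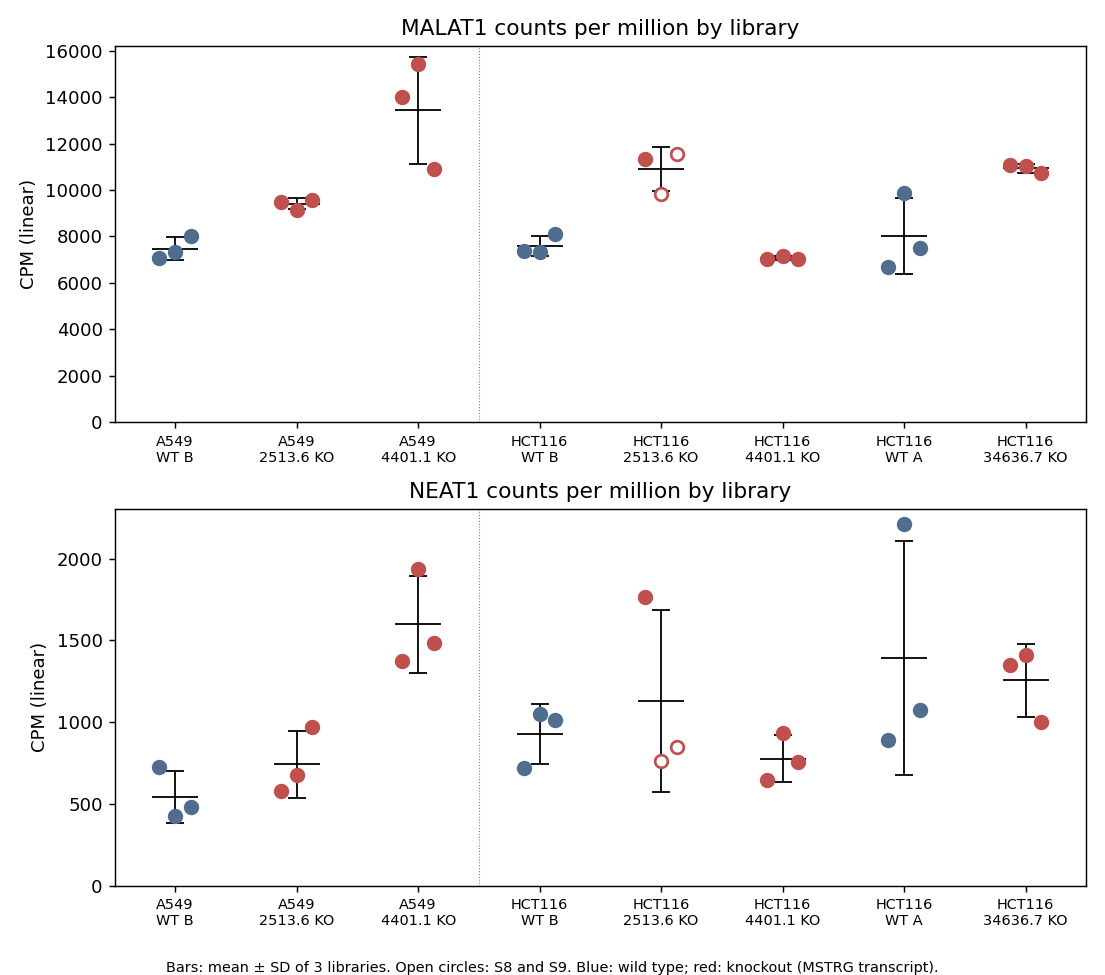
CPM of MALAT1 (top) and NEAT1 (bottom) in each of the 24 libraries by group, on linear axes from 0, with horizontal bars for the mean and error bars for the SD of 3 libraries; open circles are S8 and S9. The A549 MSTRG.4401.1 KO libraries lie above the A549 WT B libraries for both genes, and a single WT A library reaches 2211 CPM of NEAT1.

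NEAT1 rose in A549 MSTRG.4401.1 KO, and MALAT1 was higher there by a smaller factor. NEAT1 was at 1376 CPM in S23, 1935 in S24 and 1486 in S25, against 722, 424 and 482 CPM in the wild-type libraries S20, S21 and S22. All KO libraries lay above all wild-type libraries. The log2(fold change) of NEAT1 was 1.47 ± 0.245 (SE), a 2.77-fold difference (edgeR quasi-likelihood test, FDR = 0.00368), which passed the calling rule of FDR < 0.1 and |log2(fold change)| > 1. MALAT1 was at 13988, 15402 and 10911 CPM in S23, S24 and S25, against 7082, 7312 and 8032 CPM in S20, S21 and S22, again without overlap. Its log2(fold change) was 0.76 ± 0.180, or 1.70-fold, with FDR = 0.0141, so that it passed the FDR and missed the fold-change threshold. Without the wild-type library S21 its log2 value was 0.71 and it no longer passed the FDR (0.111). In this comparison 15.4% of the 24979 genes tested were called, and 43.7% passed the FDR alone. A larger absolute log2(fold change) than that of NEAT1 was found for 8.14% of the genes, and a larger one than that of MALAT1 for 30.8%. The median over all genes was 0.12, and 0.28 by upper-quartile scaling, by which NEAT1 was at 1.64. The KO libraries also had the smallest totals and the highest mitochondrial shares of the series. Symbols that GENCODE v44 names as protein-coding took 74.2% to 79.9% of the counts in them, against 84.3% to 89.1% in the wild type. The other symbols that it names as lncRNAs together took 1.41% to 1.62%, against 1.08% to 1.30%. Among these, a higher lncRNA share was therefore not particular to the pair. Only 37810 of the 60641 symbols are named in GENCODE v44, 4384 of them as lncRNAs, and the rest are in neither share. With the mitochondrial genes left out of the counts, the log2 values were 1.47 for NEAT1 and 0.76 for MALAT1, and the part of the smaller totals in the result was not tested.

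The same deletion in HCT116 gave values on the other side of 0. NEAT1 was at 643, 930 and 754 CPM in S10, S15 and S16, and at 716, 1050 and 1010 CPM in the wild-type libraries S12, S13 and S14. These groups overlapped, and the log2(fold change) of -0.27 ± 0.174 did not pass (FDR = 0.391). MALAT1 was nearly constant among the KO libraries, at 7011, 7177 and 7017 CPM, against 7374, 7326 and 8088 CPM in wild type. The KO libraries were all lower than the wild-type libraries, but the difference was small (log2 -0.12 ± 0.0519, FDR = 0.209). Of the genes tested in this comparison, 2.62% were called. The difference of the MSTRG.4401.1 KO effect between the lines was tested as an interaction. It was 1.70 ± 0.335 on the log2 scale for NEAT1 (FDR = 0.00440) and 0.84 ± 0.164 for MALAT1 (FDR = 0.00406), both higher in A549. In that test 26.9% of all genes passed FDR < 0.1, so that members of this pair were among many.

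Deletion in MSTRG.2513.6 left both genes uncalled in either line. In A549, MALAT1 was at 9483, 9147 and 9590 CPM in S17, S18 and S19, and every one of these lay above the wild-type libraries given above. The log2(fold change) was 0.33 ± 0.109 (FDR = 0.170), and 2.92% of all genes were called. NEAT1 was at 577, 678 and 968 CPM and overlapped wild type, with log2(fold change) 0.43 ± 0.256 (FDR = 0.467), which ran from 0.22 without S19 to 0.77 without S20. Both KOs of A549 were also compared directly. NEAT1 was lower in MSTRG.2513.6 KO than in MSTRG.4401.1 KO by a log2 value of -0.97 ± 0.215 (FDR = 0.0121), just short of the fold-change threshold. Of all genes, 16.6% were called there and 37.3% passed the FDR alone. The NEAT1 value passed the fold-change threshold without S19 (-1.21), without S23 (-1.07) and without S25 (-1.01). MALAT1 differed by -0.37 (FDR = 0.204) between these KOs.

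Within HCT116 MSTRG.2513.6 KO, S11 lay apart from S8 and S9 in NEAT1. NEAT1 was at 1767 CPM in S11 and at 763 and 848 CPM in S8 and S9, the pair with A549 markers. The unedited HCT116 libraries ran from 716 to 1050 CPM in WT B and from 888 to 2211 CPM in WT A. Whether the line of the libraries bears on this split was not tested. MALAT1 showed no such split, with 11344 CPM in S11 and 9831 and 11548 CPM in S8 and S9. With all 3 libraries, the log2(fold change) was 0.72 ± 0.172 for MALAT1 (FDR = 0.128) and 0.41 ± 0.275 for NEAT1 (FDR = 0.451), and 0.933% of all genes were called. Without S8 and S9, S11 alone stood for the KO and was assumed to vary like the wild-type libraries. The values were then 0.49 for MALAT1 and 0.85 for NEAT1, both below the fold-change threshold, and rest on 1 KO library. Without S11, which leaves S8 and S9 alone, NEAT1 was at 0.11 and MALAT1 at 0.81, the latter with FDR = 0.000249. That fit sets libraries with A549 markers against HCT116 wild type, and it called 10636 genes, against 246 with all 3 libraries. The interaction of this KO with cell line was -0.36 ± 0.214 for MALAT1 (FDR = 0.400) and 0.04 ± 0.439 for NEAT1 (FDR = 0.994), where 9.88% of genes passed. Without S8 and S9 it was -0.16 for MALAT1 (FDR = 0.545) and turned to -0.42 for NEAT1 (FDR = 0.689).

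MSTRG.34636.7 KO was set against WT A, and the library labels of both groups carry the letter A. MALAT1 was at 11055, 11017 and 10710 CPM in the KO libraries and at 6673, 9864 and 7518 CPM in WT A. The KO libraries were closely grouped and all higher, but the spread within WT A was wide, and the log2(fold change) of 0.45 ± 0.196 did not pass (FDR = 0.336). NEAT1 was at 1351, 1412 and 1002 CPM in the KO and at 888, 2211 and 1071 CPM in WT A, where the library 2A reached the highest NEAT1 level of the series. The log2(fold change) was -0.14 ± 0.310 (FDR = 0.875), and it turned to 0.31 without that library. In this comparison 1.34% of genes were called.

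**Figure D2:**
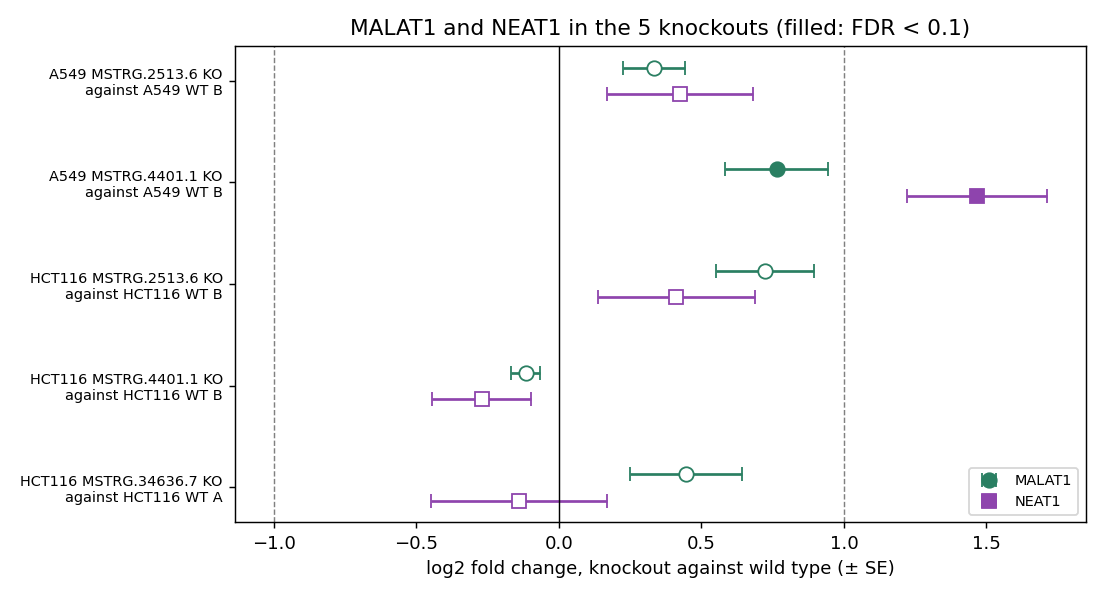
Log2(fold change) of MALAT1 (circles) and NEAT1 (squares) in each KO against its wild type, with SE bars; filled symbols passed FDR < 0.1 and dashed lines mark the fold-change threshold. Only A549 MSTRG.4401.1 KO has filled symbols, and NEAT1 at 1.47 is the only value beyond a dashed line.

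Neither lncRNA was called between the wild types. WT A against WT B of HCT116 gave a log2(fold change) of 0.06 ± 0.192 for MALAT1 (FDR = 0.888) and 0.56 ± 0.327 for NEAT1 (FDR = 0.371), with 7.06% of genes called. Without the WT A library 2A these values were -0.08 for MALAT1 and 0.10 for NEAT1, and without 1A NEAT1 was at 0.79. A549 WT B against HCT116 WT B gave 0.24 ± 0.0769 for MALAT1 (FDR = 0.0328) by TMM scaling, but -0.02 (FDR = 0.827) by library totals alone, so that its direction depends on the scaling. Without S12 its FDR was 0.127. NEAT1 was at -0.50 ± 0.254 (FDR = 0.137), at -0.77 by library totals (FDR = 0.0172) and at -0.81 without S20 (FDR = 0.00883). The line comparison called 35.7% of all genes, and neither lncRNA was among them. By the FDR alone 62.9% of all genes passed there.

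The ratio of MALAT1 to NEAT1 counts within a library does not depend on library scaling. As a log2 value it was 3.82 ± 0.457 in A549 WT B and 3.70 ± 0.368 in MSTRG.2513.6 KO of that line. For A549 MSTRG.4401.1 KO it was 3.07 ± 0.245. Set against wild type, it was at 3.35, 2.99 and 2.88 in the KO libraries S23, S24 and S25 and at 3.29, 4.11 and 4.06 in the wild-type libraries S20, S21 and S22. S23 and S20 overlapped, and the difference of -0.75 gave p = 0.2 (two-sided exact permutation test, 3 against 3, smallest possible p 0.1). In HCT116 the ratio was 2.63 ± 0.409 in WT A and 3.14 ± 0.245 in MSTRG.34636.7 KO, without overlap, and the exact permutation p of 0.1 is the smallest this design allows. It was 3.06 ± 0.285 in HCT116 WT B, 3.20 ± 0.250 in MSTRG.4401.1 KO and 3.38 ± 0.605 in MSTRG.2513.6 KO. Within that last group S11 was at 2.68, and S8 and S9 were at 3.69 and 3.77. The group differed from WT B by 0.32 (exact permutation p = 0.4), and S11 alone by -0.37, with no test. In all, 8 comparisons of the ratio were made, and their exact permutation p-values ranged from 0.1 to 0.6.

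**Figure D3:**
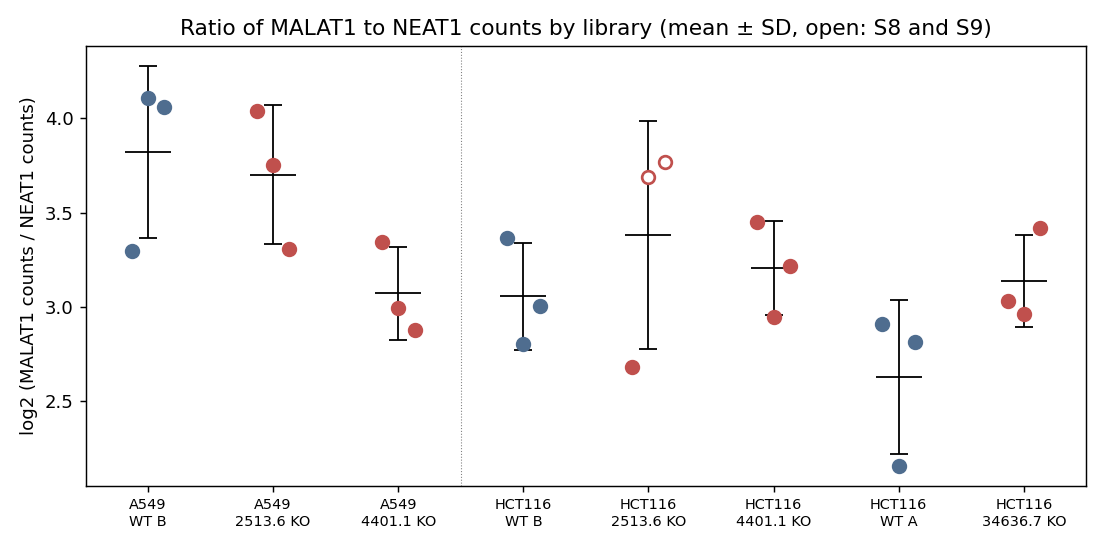
Log2 of the ratio of MALAT1 to NEAT1 counts in each library, with the mean and SD of 3 libraries; open circles are S8 and S9. The A549 MSTRG.4401.1 KO libraries lie between 2.88 and 3.35, and the A549 WT B libraries between 3.29 and 4.11.

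Genes for the proteins and enzymes that work with these RNAs were described as lists, by their counts and medians. Of the 16 paraspeckle protein genes, 1 was called in A549 MSTRG.4401.1 KO, beside 15.4% of all genes. It was HNRNPK, an RNA-binding protein needed for the long NEAT1 isoform. Its counts were 7695, 4979 and 4481 in the KO and 22591, 26086 and 14986 in wild type, and its log2(fold change) was -1.08 ± 0.138 (FDR = 0.00131), but -0.91 by upper-quartile scaling and -0.99 by library totals, short of the fold threshold. By the FDR alone, 8 of the 16 were lower in that KO and 1 was higher, the chromatin remodeller SMARCA4 (0.73), where 22.4% of all genes were lower at this FDR. The core DBHS gene NONO was at -0.36 (FDR = 0.0373), and NUDT21, a cleavage factor subunit, was at -0.91 (FDR = 0.00246). The list median was -0.26, beside 0.12 for all genes. This count depends on the scaling, since 2 were lower by upper-quartile scaling, 3 by library totals and 9 by DESeq2. Whether these levels bear on NEAT1 was not tested. In MSTRG.34636.7 KO, RBM14, a paraspeckle protein, had 1445, 1499 and 2421 counts against 93, 295 and 179 in WT A (log2 2.85, FDR = 0.0499). That value turned to -2.93 against WT B, and reads may be split between RBM14 and its read-through with RBM4, so it is uncertain. It also lost its call without 1A, 2A or 3A of the KO or 3A of WT A (FDR 0.109 to 0.209). No paraspeckle gene was called in the other 3 KO comparisons by edgeR or DESeq2, where 10 of the gene tests had an unadjusted p under 0.05.

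None of the 18 nuclear speckle and SR protein genes was called in any KO by edgeR or by DESeq2. Over the 5 comparisons of 18 gene tests each, 23 tests had an unadjusted p under 0.05. In A549 MSTRG.4401.1 KO these were 9 of 18, beside 11322 of 24979 over all genes. At the same FDR without the fold threshold, 6 were lower and 3 higher in A549 MSTRG.4401.1 KO, where 22.4% of all genes were lower and 21.3% higher. In HCT116 MSTRG.4401.1 KO 5 were higher and none lower, beside 7.57% and 8.72% of all genes. The list median there was -0.09 in A549 and 0.14 in HCT116, and the A549 median was 0.08 by upper-quartile scaling. The A549 counts also depend on the scaling. By upper-quartile scaling 2 were lower and 6 higher, by library totals 4 and 4, and by DESeq2 7 and 1.

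Of the 13 genes of RNase P, RNase Z and the triple-helix binder METTL16, 9 were lower and 1 higher by the FDR alone in A549 MSTRG.4401.1 KO, beside 22.4% and 21.3% of all genes. The list median was -0.48, and 7 to 9 were lower under each other scaling. RPP40, a protein subunit of RNase P, was the only one called, beside 15.4% of all genes. It had 198, 137 and 128 counts against 719, 792 and 537 (log2 -1.33 ± 0.153, FDR = 0.000819). ELAC2, the gene for RNase Z, was at -0.84 (FDR = 0.000932) and METTL16 at -0.56 (FDR = 0.00377). The gene that was higher is RPPH1, the RNA subunit of RNase P (0.67, FDR = 0.0344). In HCT116 MSTRG.2513.6 KO, POP1, another RNase P subunit, was called at -1.21 (FDR = 0.0820), with 1343 counts in S11, 1676 in S8 and 1590 in S9 against 5277, 6184 and 5916 in wild type, and in MSTRG.34636.7 KO, RPP30 was called at -1.18 (FDR = 0.0187), but not without 1A or 2A of the KO (FDR = 0.148 and 0.158). POP1 lost its call without any single one of S8, S9, S12, S13 or S14 (FDR 0.322 to 0.425). Without both S8 and S9 its value was -1.50, with S11 as the only KO library. In the unedited HCT116 WT A, POP1 was at 51.0 ± 25.8 CPM, against 98.5 ± 2.13 in WT B (log2 -0.95, FDR = 0.144). It was also called between A549 WT B and HCT116 WT B. No gene of this list was called for A549 MSTRG.2513.6 or for HCT116 MSTRG.4401.1 by edgeR or DESeq2. There 4 of the gene tests, 13 in each comparison, had an unadjusted p under 0.05, beside 4300 of 25666 and 6836 of 26615 over all genes.

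A list of 19 genes known to be induced in the response to DNA damage was set beside NEAT1, and it is no general measure of cell stress. In A549 MSTRG.4401.1 KO, where NEAT1 rose, CDKN1A, the cell cycle inhibitor, was at -0.94 (FDR = 0.00309). By the FDR alone 9 of the 19 were lower and 3 higher in this KO, where 22.4% and 21.3% of all genes were, and 7 to 9 were lower under each other scaling. In HCT116 MSTRG.4401.1 KO 10 were lower and none higher at this FDR, where 8.72% of all genes were lower, and under upper-quartile scaling 10 were lower and 1 higher. GDF15, a stress-induced cytokine, was called there (log2 -1.09 ± 0.0551, FDR = 6.29e-05), and NEAT1 was at -0.27. In A549 MSTRG.2513.6 KO, CDKN1A (1.05 ± 0.109, FDR = 0.00279) and GDF15 (1.73 ± 0.109, FDR = 0.000287) were called higher, while NEAT1 was at 0.43. Of all genes, 2.92% were called there. Without S18, CDKN1A was at 0.96 and no longer past the fold-change threshold. In the other 3 KO comparisons, A549 MSTRG.4401.1 KO among them, no gene of this list was called by edgeR, where 22 gene tests had an unadjusted p under 0.05 and DESeq2 called 1.

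Other nuclear lncRNAs served as a comparison for the pair. In A549 MSTRG.4401.1 KO, MEG3, an imprinted lncRNA, fell to 87, 136 and 98 counts from 1084, 1219 and 839 (log2 -2.43 ± 0.250, FDR = 0.000492). FTX, a lncRNA of the X-inactivation centre, was called at 1.02 ± 0.0965 (FDR = 0.000326), and DLEU2, named outside the rule of naming, at 1.01 (FDR = 0.00161). Both lie close to the fold-change threshold, and neither was called by DESeq2, where FTX was at 0.96. The list median was 0.14 over the 12 genes tested, beside 0.12 for all genes. Of the 12, 2 were called higher and 1 lower, where 15.4% of all genes were called. By the FDR alone 5 were higher and 2 lower, beside 21.3% and 22.4% of all genes. In A549 MSTRG.2513.6 KO, MIAT was called at -1.18 ± 0.192 (FDR = 0.0174), with 272, 212 and 234 counts against 518, 496 and 515. It was the only one called of the 13 tested, beside 2.92% of all genes. In HCT116 no gene of this list was called in any of the 3 KOs by edgeR, with 12 gene tests at an unadjusted p under 0.05 and 2 calls by DESeq2, both in MSTRG.2513.6 KO.

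Genes around the pair were described in the same way. FRMD8, the next gene before NEAT1 and 9249 bases away, fell in A549 MSTRG.4401.1 KO, in which NEAT1 rose. It had 394, 114 and 441 counts in S23, S24 and S25 against 2707, 1985 and 979 in S20, S21 and S22 (log2 -1.72 ± 0.452, FDR = 0.0208). FRMD8 also varied widely inside groups, from 1061 to 3994 counts in S17 to S19 and from 662 to 3913 in HCT116 MSTRG.4401.1 KO, where its log2(fold change) was 0.69 (FDR = 0.579) and -0.59 (FDR = 0.563). LTBP3, a binder of latent TGF-beta, stayed between -0.26 and 0.11 in the 5 KOs, with no FDR below 0.1 except in HCT116 MSTRG.2513.6 KO without S8 and S9 (-0.20, FDR = 0.0461). Of the 17 neighbours tested, FRMD8 was the only one called in A549 MSTRG.4401.1 KO, beside 15.4% of all genes. By the FDR alone 3 were lower and 1 higher, beside 22.4% and 21.3%, but 2 lower and 4 higher by upper-quartile scaling. POLA2 was the only one called in MSTRG.34636.7 KO, beside 1.34% of all genes (-1.35, FDR = 0.0601), though not without 1A, 2A or 3A of the KO or 3A of WT A (FDR 0.109 to 0.255). In the other 3 KO comparisons none was called by edgeR and 1 by DESeq2. There 3 of the gene tests, 17 in each comparison, had an unadjusted p under 0.05. Over all genes it was found for 4300 of 25666 (A549 MSTRG.2513.6 KO), 5456 of 26374 (HCT116 MSTRG.2513.6 KO) and 6836 of 26615 (HCT116 MSTRG.4401.1 KO). The antisense gene TALAM1 overlaps MALAT1 and was not analysed here. Whether the counting used the strand is not given in the sources used here, so its reads may stand in the MALAT1 counts.

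**Figure D4:**
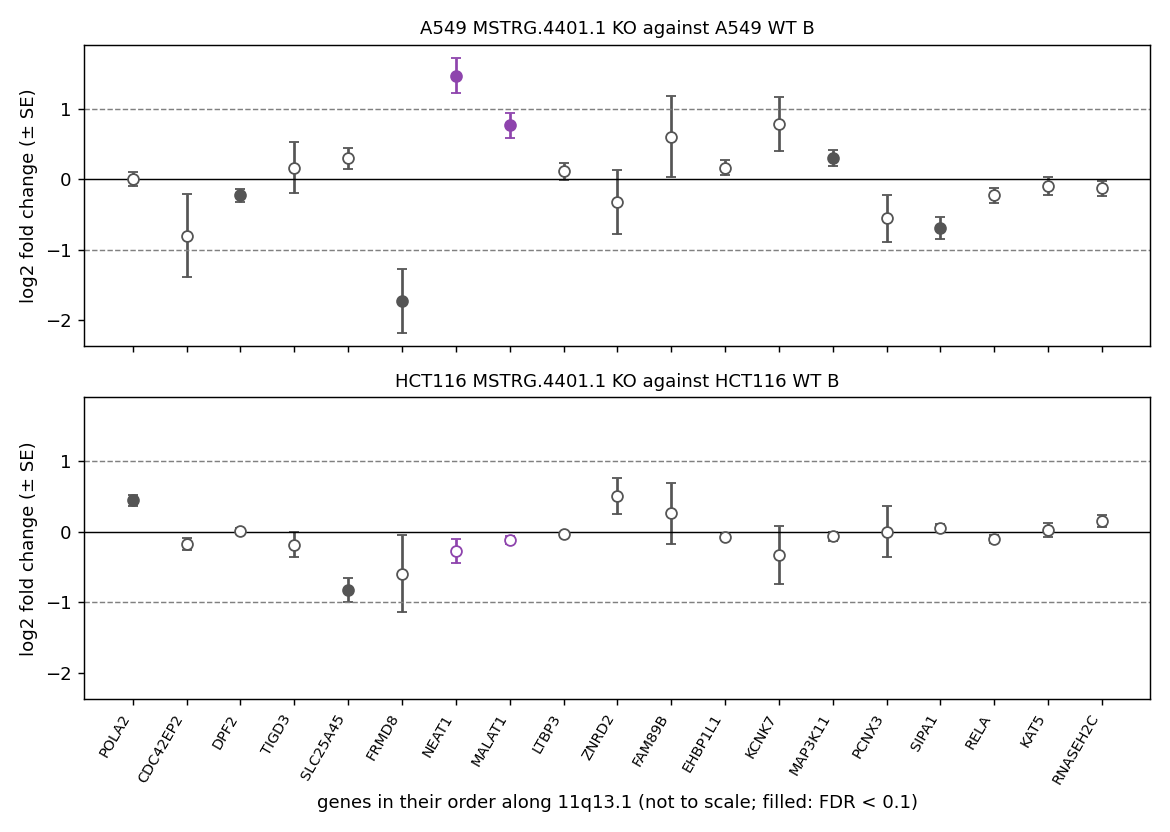
Log2(fold change) with SE of the genes around NEAT1 and MALAT1 in their order along 11q13.1 for MSTRG.4401.1 KO in A549 (top) and HCT116 (bottom); filled points passed FDR < 0.1 and the pair is drawn in purple. In A549, FRMD8 at -1.72 and NEAT1 at 1.47 stand next to each other on opposite sides of 0, and no neighbour in HCT116 passes a dashed line.

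MIR612 is annotated inside the last part of the long NEAT1 isoform, at chr11:65444458-65444557, and the files count it separately. It was chosen after its values were seen. It had 63, 41 and 102 counts in A549 MSTRG.4401.1 KO against 7, 19 and 6 in A549 WT B (log2 3.55 ± 0.535, FDR = 0.00252). Per 1000 NEAT1 counts these were 1.38, 0.821 and 2.62 in the KO and 0.165, 0.754 and 0.300 in wild type. The groups did not overlap, but the nearest values were 0.821 and 0.754. On this scale A549 MSTRG.2513.6 KO was at 0.244, 0.876 and 1.30, and unedited HCT116 WT B at 1.28, 0.727 and 2.29. In HCT116 MSTRG.4401.1 KO, MIR612 had 30, 62 and 82 counts against 48, 49 and 139 (log2 -0.12, FDR = 0.917). Counts of this size at an interval of 100 bases are few beside those of NEAT1, and whether they come from the long isoform or from the miRNA precursor was not tested.

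The genes whose levels over the 24 libraries were most like those of the pair were found among 11127 genes with a mean of at least 10 CPM, by Pearson's r of log2(CPM + 1). For MALAT1 they were LINC00894 (r = 0.856), CFAP298-TCP10L (0.848) and ATG16L2 (0.831). For NEAT1 they were FAM229A (0.870), AC131392.2 (0.824) and ANKRD36C (0.813). MALAT1 and NEAT1 themselves had r = 0.623 over the 24 libraries, 0.870 over the 9 A549 libraries and 0.552 over the 15 labelled HCT116. The libraries share groups, depth and a common total, so these values are a description. Within groups, after the group means were taken out, r was 0.136 in A549 and 0.748 in HCT116. Without S8 and S9 the r of the pair was 0.669 over 22 libraries and 0.755 over the 13 HCT116 libraries, or 0.860 within groups. The genes named above then had r between 0.827 and 0.900.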

How the data were processed

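Ribosomal-RNA-depleted total RNA had been sequenced with a directional kit. The authors deposited whole-number counts per gene symbol, 1 file per library, neither normalized nor pooled. Per the labels the processing used Trim Galore 0.6.6, FastQC 0.11.9, HISAT2 2.2.1 and hg38, and the paper's methods name StringTie for quantification. The annotation release and the use of strand are not given in the sources used here. The 3 symbols listed only by the libraries 1A, 2A and 3A were left out.

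edgeR 4.0.16 was run on each comparison by itself (R 4.3.3, limma 3.58.1), with TMM, filterByExpr, glmQLFit and glmQLFTest, and Benjamini-Hochberg adjustment over all genes tested. Genes were called at FDR < 0.1 and |log2(fold change)| > 1, and the 2 interactions at FDR < 0.1. The SE is |log2(fold change)| divided by the square root of F. CPM are counts per 1000000 of the library total, without TMM. The share of all genes whose groups did not overlap was not counted. The code was tested on simulated counts.

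The members and the gene lists were chosen with earlier results of these data known. Some genes of the lists are not reported here and were left out of the list counts. The text names MALAT1 and NEAT1, up to 2 called genes per list and KO comparison with the largest absolute log2(fold change), the nearest neighbours, and the 3 genes most alike. NONO, NUDT21, SMARCA4, ELAC2, METTL16, RPPH1, DLEU2, MIR612 and, in A549 MSTRG.4401.1 KO, CDKN1A fall outside this rule and were chosen after their values were seen. The markers were 7 genes for A549, 7 for HCT116 (sum 169 to 318 CPM in the 13 other HCT116 libraries, 7.87 to 25.4 in A549, 8.54 and 9.67 in S8 and S9) and 4 for lung. No 2 libraries of a group agreed within sampling noise. Alternatives were DESeq2 1.42.0, other scalings, filters, thresholds and controls, the fit of a whole line, the replicate block, and each library left out.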

Additional observations from a re-analysis of the deposited data

Results flagged for a closer look

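The effect of MSTRG.4401.1 KO differed between the cell lines for both lncRNAs by the interaction test of edgeR over 12 libraries. On the log2 scale, A549 minus HCT116, the difference was 0.84 for MALAT1 (FDR = 0.00406) and 1.70 for NEAT1 (FDR = 0.00440). Of the 30134 genes in this test, 26.9% passed FDR < 0.1, so the pair was among many. In A549 all 3 KO libraries were higher than all 3 wild-type libraries for both genes, where 43.7% of all genes passed the FDR alone. In HCT116 the MALAT1 values of all 3 KO libraries were lower than those of the wild type, and the NEAT1 values overlapped. Over 19 alternatives each, the difference stayed between 0.75 and 0.99 for MALAT1 and between 1.52 and 2.02 for NEAT1, and the FDR did not exceed 0.0129 and 0.0150. The A549 KO libraries had mitochondrial shares of 3.50% to 7.87%, against 1.90% to 2.19% in the HCT116 KO libraries, and with the mitochondrial genes left out both differences again passed. The part of cell condition or of library quality in them was not tested.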

How the results depend on the processing

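NEAT1 in A549 MSTRG.4401.1 KO was called in all 15 (log2 1.27 to 1.77). With no fold-change threshold, MALAT1 also passed there (0.76), where 43.7% of all genes did. It also passed between the wild types of the lines (0.24), where 62.9% of all genes did. NEAT1 between the A549 KOs passed by upper-quartile scaling (-1.17), by library totals (-1.11), with at least 10 counts in every library (-1.002), with no fold-change threshold (-0.97) and in some of the fits without 1 library (-1.21 to -0.83). The MSTRG.2513.6 interaction of MALAT1 passed by DESeq2 (-0.36) and without S11, with a range of -0.44 to -0.26 when single libraries were left out. Against the other HCT116 wild type, NEAT1 was at -0.18 in MSTRG.2513.6 KO, 0.41 in MSTRG.34636.7 KO and -0.84 in MSTRG.4401.1 KO, none called. Without 1 library, NEAT1 ran from -0.43 to -0.15 in HCT116 MSTRG.4401.1 KO, while for MSTRG.34636.7 KO it ran from -0.38 to 0.31. The ratio in HCT116 MSTRG.2513.6 KO turned to -0.37 without S8 and S9. This alternative and the correlations without both were chosen after seeing the data. RBM14 in MSTRG.34636.7 KO turned to -2.93 against the other wild type. Genes called per list, summed over the KO comparisons, were 2 for paraspeckle proteins, 0 for speckle proteins by edgeR, 3 for RNase P, 2 for neighbours, 4 for lncRNAs and 3 for DNA damage genes. With no fold-change threshold these were 15, 15, 15, 7, 15 and 27. Each comparison tested 16, 18, 13, 17, 12 or 13, and 19 genes of the lists. Of all genes, 43.7% passed the FDR alone in A549 MSTRG.4401.1 KO and 16.3% after the same deletion in HCT116. For MSTRG.2513.6 KO it was 5.97% in A549 but 1.42% in HCT116, while MSTRG.34636.7 KO had 2.15%. Against the other HCT116 wild type the list counts were 8, 6, 3, 6, 11 and 7. Calls over all genes also rose there, from 697 to 2743 for the MSTRG.4401.1 deletion and from 385 to 4059 for MSTRG.34636.7. Paraspeckle calls were 1 by upper-quartile scaling and 1 by library totals, lncRNA calls were 2 with no filter, neighbour calls were 1 at FDR < 0.05 and 1 with the replicate block, and speckle calls were 1 without S8 and S9. When single libraries were left out, the counts ran from 1 to 3, 0 to 1, 2 to 5, 1 to 4, 2 to 7 and 2 to 6, and the highest RNase P, lncRNA and DNA damage gene counts came without S11. Without S23 there were 5 DNA damage gene calls. The cause was not tested. The replicate numbers did not pair the libraries (r of same-numbered deviations 0.0117, 0.0515 and 0.0558 in MSTRG.34636.7 KO and WT A). With the replicate block, MALAT1 was at 0.46 and NEAT1 at -0.05 in that comparison, POLA2 was no longer called, and the genes called went from 385 to 166. Over all genes, the calls changed from 246 to 10636 without S11, and from 697 to 27 in HCT116 MSTRG.4401.1 KO when all libraries of the line were fitted together. The fit of a whole line was not run for the comparison of the lines or for the interactions.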
